A study of Mus musculus with 4 samples.

Results

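The extracellular part of the Wnt pathway was examined in mouse colon: Wnt ligands, their Frizzled receptors, the secreted inhibitors of the Sfrp and Dkk families, and the R-spondins. Members were all genes whose name on the array begins with Wnt, Fzd, Sfrp, Dkk or Rspo followed by a number. These were 41 genes (19 Wnt, 10 Fzd, 4 Sfrp, 4 Dkk and 4 Rspo) with 48 probes, of 39429 non-control probes on the array. Of the 41 genes, 34 had a probe well above background on at least 1 array, by the scanner software's own flag, out of 22162 genes on the array for which this holds.

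Each of the 4 arrays carried RNA mixed from the colons of 3 C57BL/6 mice, which the labels give as 9 weeks old and male, with the 2 entries under each other's tag, while the growth protocol speaks of mice 8 weeks old. The groups were wildtype without treatment (WT naive), Pla2g10 -/- without treatment (KO naive), and both genotypes at day 7 of 1% dextran sulfate sodium in the drinking water (WT DSS and KO DSS). Pla2g10 encodes group X secreted phospholipase A2, and DSS injures the colon epithelium and is widely used to produce colitis. The design asks what DSS does to the colon in each genotype and what the loss of Pla2g10 does in each condition. There was 1 array a group, so no comparison of a pair of pools has a replicate check; errors given as "spot SE" come from the scanner's error of the spots and cover neither mice nor pools.

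Wnt proteins are secreted lipid-modified ligands that bind a Frizzled receptor together with Lrp5 or Lrp6 and, in the canonical branch, stabilise beta-catenin. R-spondins bind Lgr receptors and remove the ubiquitin ligases Rnf43 and Znrf3, which would otherwise clear Frizzled from the cell surface. Sfrps bind Wnts outside the cell, while Dkk1, Dkk2 and Dkk4 act on Lrp5 and Lrp6. In the colon, Wnt signalling maintains the stem cells at the crypt base, and stromal cells around the crypt are a known source of R-spondins and Wnt ligands.

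The results turn on a small number of probes, and the 30 central bases of each are shown because the probe sequence defines what each signal measures. Each probe is 60 bases long, its stretch from base 16 to base 45 is given 5′ to 3′, and no base is in capitals because no motif was marked. Wnt8b has a pair of probes, which differ in whether they were above background.

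Rspo1: cggatgacctgacttggaaactgcttaaag
Rspo3: acaaggtgtatctagtaggagagaaagcca
Sfrp1: cggagagtcagggaaagctaaacccaccaa
Sfrp4: gcatactgtgtaagacctcctgttttaaga
Sfrp5: gtggggccgctgattctagacaacagattt
Fzd9: tttattgtggcatttctctggaagctgtga
Wnt7b: gagaccccacggctctgtgaaataaatata
Wnt8b, the brighter probe: aacacacaagcatccttcagttcacggctt
Wnt8b, the dimmer probe: ggcaatttccaagcagtttgtggatgccct

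In the array's mm9 coordinates the whole probes lie at chr4:124686270-124686329 on the plus strand (Rspo1), chr10:29172930-29172989 on the minus strand (Rspo3), chr8:24559438-24559497 on the plus strand (Sfrp1) and chr13:19724488-19724547 on the plus strand (Sfrp4). The probe of Sfrp5 lies at chr19:42272509-42272568 on the minus strand, that of Fzd9 at chr5:135724815-135724874 on the minus strand and that of Wnt7b at chr15:85366896-85366955 on the minus strand. The brighter Wnt8b probe is at chr19:44588615-44588674 and the dimmer at chr19:44585759-44585818, both on the plus strand. An mm9 exon and UTR annotation was not used here, so their place within each transcript is not stated. Of all 48 member probes, only that of Wnt5a shared a stretch of at least 20 bases with probes of other genes on the array, so its signal may include other transcripts.

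As a check of the labels, Pla2g10 had a relative signal of 15.8 (WT naive) and 19.0 (WT DSS) against 1.69 (KO naive) and 0.993 (KO DSS), lower in both knockout pools. The labels do not say which part of the gene is missing, so it is not known whether the probe lies there. Relative signals are processed signals on a scale where 1 is the 75th percentile of that array. Values of different probes are not compared with each other. Between 67.7% and 70.4% of spots were well above background and 0 were saturated. The spot error of the member probes above background was at most 21.8% of the signal, with a median of 10.2%. Of 12 colon epithelium marker genes, 12 were above background in every pool, with summed signals of 560.0 (WT naive), 650.0 (KO naive), 578 (WT DSS) and 449 (KO DSS). The DSS pools also carried signal from genes of other tissues: 9 of 10 pancreatic acinar genes were past 2-fold higher in WT DSS than in WT naive, and 7 of 10 in KO DSS than in KO naive. Of 6 measured adipocyte genes, 6 and 5 were. Of all genes 3.44% were past 2-fold higher with DSS in WT and 5.67% in KO. Between the DSS pools, 10 of 10 acinar and 0 of 6 adipocyte genes were past 2-fold lower in KO, where 2.20% of all genes were. The summed acinar signal was 31.8 in WT DSS and 8.74 in KO DSS. The part of these other tissues in the values below was not tested.

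Of the 41 genes, 28 were well above background in every pool. These were 9 of 19 ligands, all 10 receptors, 6 of 8 secreted inhibitors and 3 of 4 R-spondins. Another 6 were above background in some pools (Dkk4, Wnt10a, Wnt10b, Wnt2b, Wnt7b and Wnt8b). The remaining 7 were not well above background in any pool: Dkk1, Rspo4, Wnt2, Wnt3, Wnt3a, Wnt7a and Wnt8a. Wnt3, a ligand known from Paneth cells of the small intestine, was therefore not measured here. For genes on the dim side of a comparison the difference is given as a bound, against the higher of the gene's own signal and the lowest signal that was well above background on that array (0.0164 and 0.0154 on the WT and KO naive arrays, 0.0113 and 0.0141 on the WT and KO DSS arrays).

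**Figure D1:**
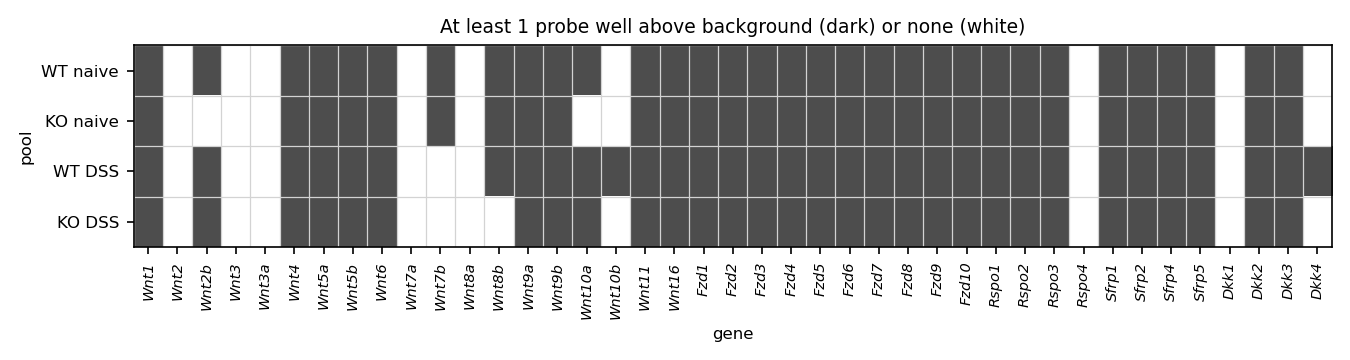
Grid of the 41 genes (columns) and 4 pools (rows), dark where at least 1 probe of the gene was well above background and white where none was. All 10 receptor columns are dark in every pool, against 9 of 19 ligand columns.

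In the WT colon, the DSS pool had more Rspo1 and less Fzd9, Wnt7b and Wnt8b than the naive pool, each by more than 2-fold. Past 2-fold, 1 member was higher, where 3.44% of all 22162 genes were, and 3 members were lower, where 5.13% of all genes were. In the KO colon the same 3 genes were lower in the DSS pool, where 5.00% of all genes were. There 8 members were higher, where 5.67% of all genes were: Rspo1, Rspo3, Sfrp1, Sfrp4, Sfrp5, Dkk2, Fzd1 and Wnt10a. The median log2 ratio of the 34 measured members was -0.08 in WT, beside -0.02 for all genes, and 0.23 in KO, beside -0.13 for all genes.

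Of the R-spondins, Rspo1 had relative signals of 0.128 (WT naive), 0.151 (KO naive), 0.322 (WT DSS) and 0.620 (KO DSS). Both DSS pools were above both naive pools. DSS over naive was 2.53-fold in WT (log2 1.34, spot SE 0.21) and 4.12-fold in KO (log2 2.04, spot SE 0.21). Between the DSS pools, KO was 1.93-fold above WT.

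Rspo3, the R-spondin known from stroma near the crypt base, had 0.532 (WT naive), 0.401 (KO naive), 0.723 (WT DSS) and 1.37 (KO DSS), so the KO DSS pool was the highest. DSS over naive was 1.36-fold in WT, under the 2-fold threshold, and 3.43-fold in KO (log2 1.78, spot SE 0.20). Rspo2 was dim, with 0.0351, 0.0252, 0.0215 and 0.0261 in WT naive, KO naive, WT DSS and KO DSS, and no pair of these pools reached 2-fold. Rspo4 was not well above background in any pool.

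All 4 Sfrp genes, whose products bind Wnts, had their lowest signal in KO naive and their highest in KO DSS. Sfrp1 had 0.231 (WT naive), 0.157 (KO naive), 0.303 (WT DSS) and 0.947 (KO DSS). The last was 6.03-fold above KO naive (log2 2.59, spot SE 0.21) and 3.12-fold above WT DSS (log2 1.64, spot SE 0.20). In WT, DSS over naive was 1.31-fold.

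Sfrp4 had 0.256, 0.136, 0.262 and 0.665 in WT naive, KO naive, WT DSS and KO DSS. KO DSS was 4.88-fold above KO naive and 2.54-fold above WT DSS, while the pair of WT pools differed by 1.03-fold. Sfrp4 was also the member that came nearest to 2-fold between the naive pools, 1.88-fold lower in KO (log2 -0.91, spot SE 0.21). Sfrp5 had 0.243, 0.168, 0.213 and 0.356 in the same order of pools, with KO DSS 2.12-fold above KO naive and WT DSS 1.14-fold below WT naive. Sfrp2 had 0.298, 0.203, 0.239 and 0.351, which gave a DSS over naive ratio of log2 0.79 in KO and -0.32 in WT.

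Of the Dkk family, Dkk2 had 0.0580 (WT naive), 0.0530 (KO naive), 0.0884 (WT DSS) and 0.120 (KO DSS), with both DSS pools above both naive ones. DSS over naive was 1.52-fold in WT and 2.27-fold in KO, the latter log2 0.91 with normexp and quantile normalization. Dkk3, a divergent family member that is not known to act as an Lrp5 or Lrp6 antagonist, had 3.41, 2.80, 2.71 and 3.89, and no pair of pools differed by 2-fold. Dkk4 was well above background only in WT DSS, as was the ligand Wnt10b.

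Over the 6 inhibitors above background in every pool, all 6 were lower in KO naive than in WT naive (log2 -0.91 to -0.13), and all 6 were higher in KO DSS than in WT DSS (log2 0.44 to 1.64). These signs held for all 6 under median scaling, quantile normalization, and normexp with quantile normalization. Of 19322 genes above background in every pool, 8589 were below 0 in the first comparison and 7411 above 0 in the second. With DSS, 6 of 6 were above 0 in KO (log2 0.47 to 2.59) and 3 of 6 in WT (log2 -0.33 to 0.61), where 7439 and 9368 of the 19322 genes were. The KO naive pool enters both the KO response and the naive comparison, so a low value there raises the KO response and lowers the naive ratio.

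**Figure D2:**
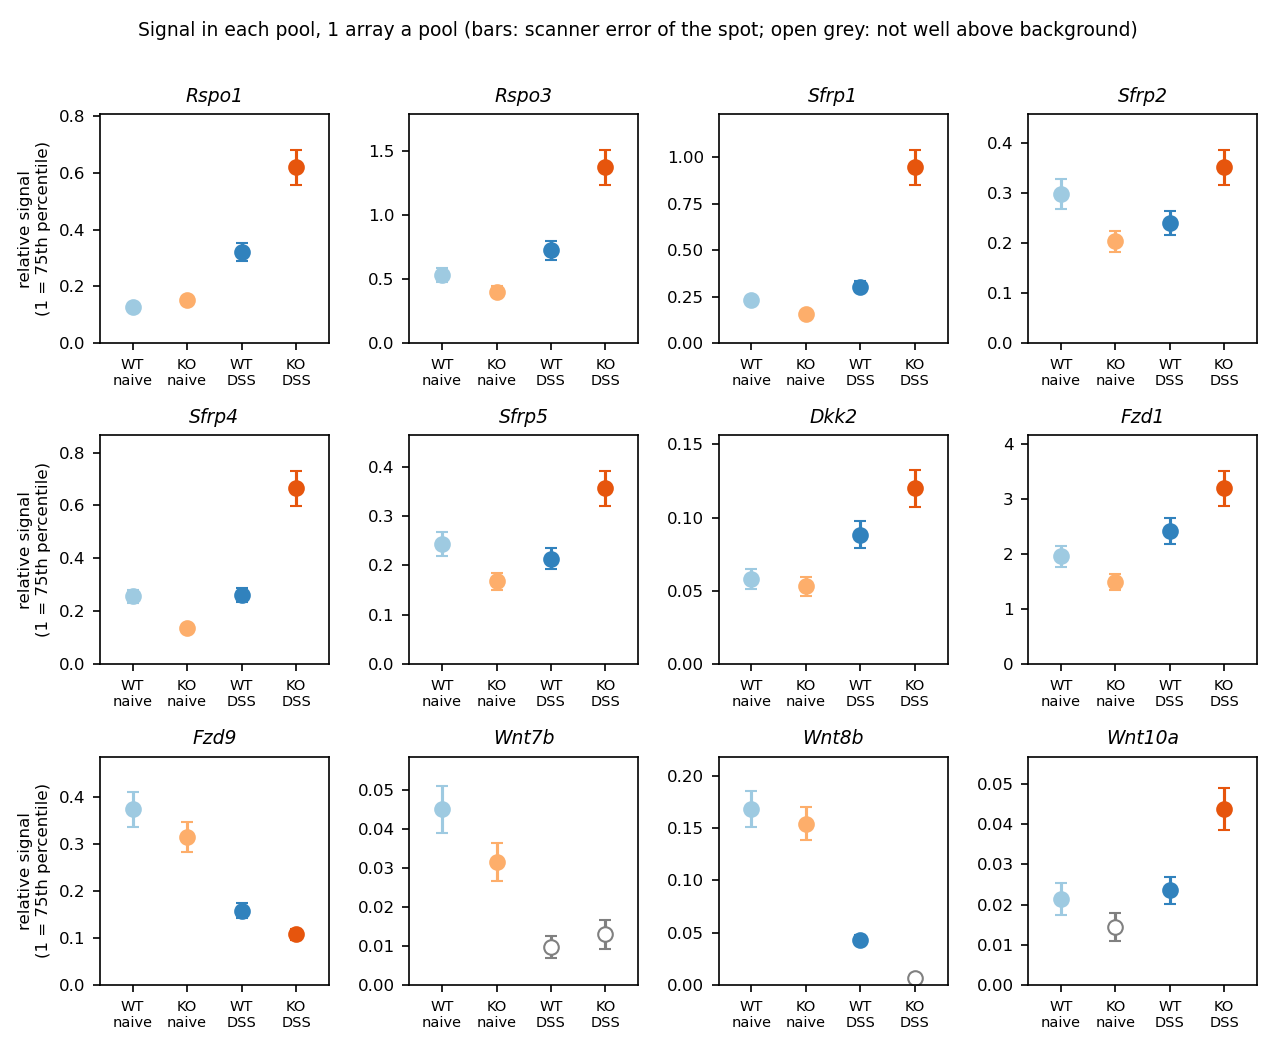
Relative signal (1 = the array's 75th percentile, linear axes from 0) of 12 members in each of the 4 pools, 1 array a pool. Bars are the scanner's error of the spot and open grey points were not well above background. Rspo1, Rspo3, Sfrp1 and Sfrp4 are highest in KO DSS, and Fzd9 and Wnt8b are lower in both DSS pools than in both naive pools.

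Among the receptors, Fzd9 had 0.373 (WT naive), 0.315 (KO naive), 0.158 (WT DSS) and 0.108 (KO DSS). Both DSS pools were below both naive pools, 2.36-fold in WT (log2 -1.24, spot SE 0.21) and 2.92-fold in KO (log2 -1.54, spot SE 0.21). The WT ratio was log2 -0.98, just under 2-fold, after normexp background correction with quantile normalization. Fzd1 had 1.96, 1.49, 2.42 and 3.20 in WT naive, KO naive, WT DSS and KO DSS, and its DSS over naive ratio was 1.23-fold in WT and 2.14-fold in KO.

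Fzd5, a receptor known from the intestinal epithelium, had 0.606, 0.787, 0.593 and 0.494 in the same order, and its largest pair ratio was 1.59-fold lower with DSS in KO. Fzd7, a receptor known from intestinal stem cells, had 0.271, 0.257, 0.165 and 0.171. Its DSS over naive ratio was 1.64-fold lower for WT and 1.5-fold lower for KO. Its dimmer probe gave log2 -0.58 in WT but 0.38 in KO, the opposite sign from the brighter probe there (-0.59). Of the 10 receptors, 8 were below 0 in WT (range log2 -1.24 to 0.45) and 7 in KO (range -1.54 to 1.1), with a median of -0.29 in each. Of the 19322 genes above background in every pool, 9954 were below 0 in WT and 11883 in KO. Fzd2, Fzd3, Fzd4, Fzd6, Fzd8 and Fzd10 did not reach 1.5-fold in any of the 4 comparisons by their brightest probe; the dimmer Fzd2 probe was 1.60-fold lower with DSS in KO. Under median scaling Fzd10 and Fzd5 turned above 0 in WT (0.04 and 0.11), as they did under quantile normalization (0.06 and 0.01).

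Among the ligands, Wnt8b had 0.168 (WT naive), 0.154 (KO naive) and 0.0428 (WT DSS), and its KO DSS signal was too close to background to be measured. It was 3.93-fold lower with DSS in WT (log2 -1.98, spot SE 0.22), at least 10.9-fold lower in KO, and at least 3.03-fold lower in KO DSS than in WT DSS. These values come from its brighter probe. The dimmer probe was not well above background in any pool. With normexp and quantile normalization the measured difference between the DSS pools was log2 -1.14, and with the dim side at its bound it was under 2-fold.

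Wnt7b had 0.0450 (WT naive) and 0.0314 (KO naive) and did not pass the background flag in either DSS pool. The DSS pools were therefore at least 3.99-fold lower in WT and at least 2.22-fold lower in KO. With normexp and quantile normalization Wnt7b had log2 -0.90 in WT and -0.36 in KO, and neither was past 2-fold. Wnt10a was near background, with 0.0213 (WT naive), 0.0235 (WT DSS) and 0.0437 (KO DSS), and did not pass the background flag in KO naive. In KO it was at least 2.84-fold higher with DSS, and log2 0.80 with normexp and quantile normalization.

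Wnt5a, a ligand known mainly for non-canonical signalling, had 0.50, 0.475, 0.451 and 0.643 in WT naive, KO naive, WT DSS and KO DSS, with no pair ratio at 2-fold and the probe limit given above. Wnt4 had 0.343, 0.431, 0.532 and 0.677, with DSS over naive at 1.55-fold for WT and 1.57-fold for KO. Its dimmer probe, also above background in every pool, gave 1.18-fold for WT and 1.62-fold for KO. Wnt2b had 0.0229 (WT naive), 0.0165 (WT DSS) and 0.0220 (KO DSS), and did not pass the background flag in KO naive. The 9 ligands above background in every pool (Wnt1, Wnt4, Wnt5a, Wnt5b, Wnt6, Wnt9a, Wnt9b, Wnt11 and Wnt16) ranged from log2 -0.36 to 0.63 with DSS in WT and from -0.37 to 0.65 in KO. For Wnt1 and Wnt16 a second probe was not well above background in any pool.

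**Figure D3:**
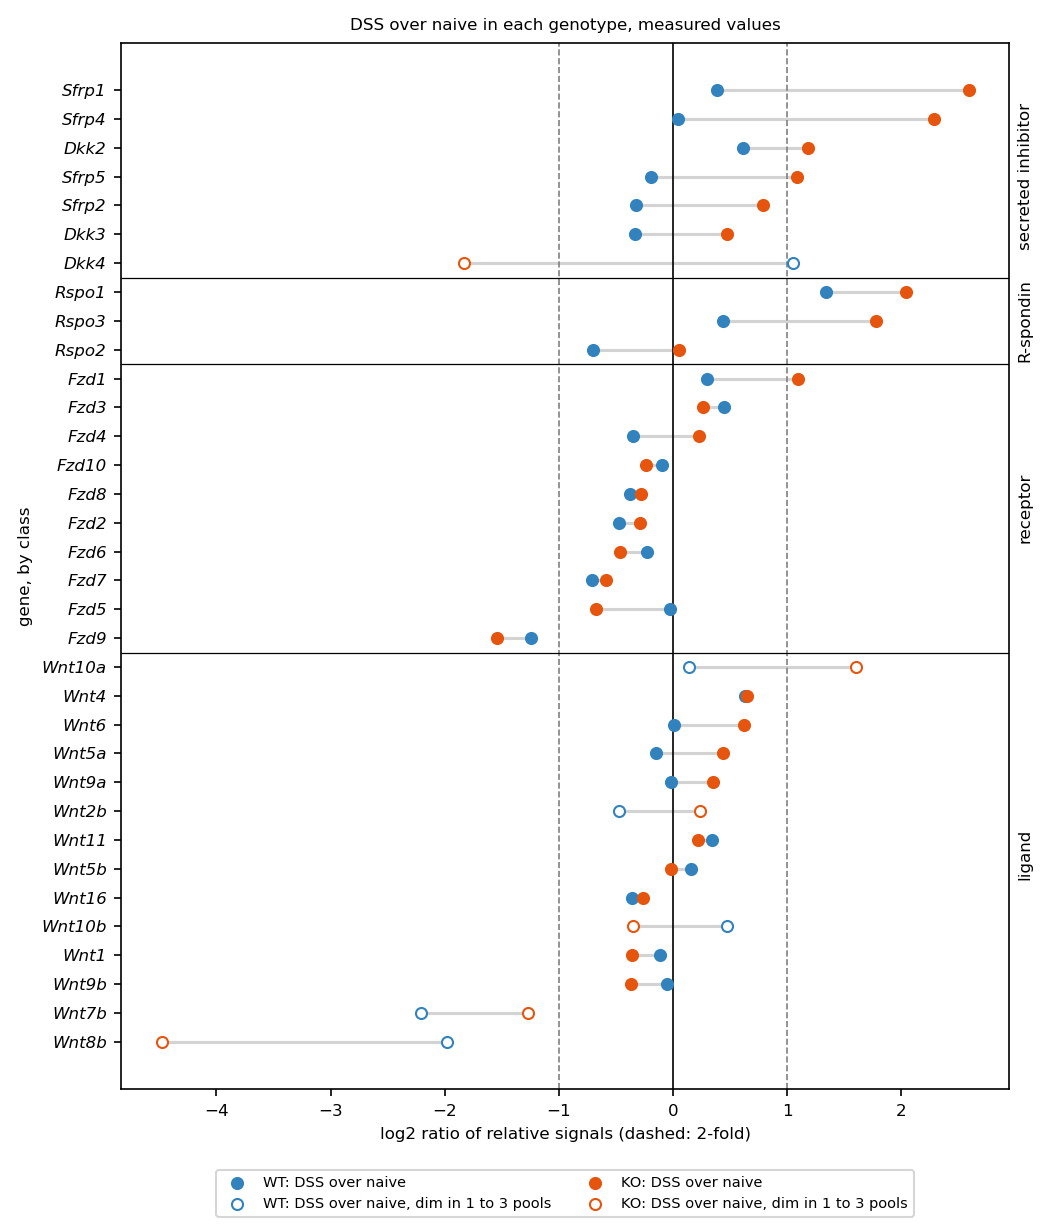
Log2 ratio of relative signals, DSS over naive, for each measured member by class, in WT and in KO. Open points were not well above background in at least 1 pool and are plotted at their measured value. In the inhibitors and R-spondins the KO points lie to the right of the WT points for all 9 genes above background in every pool.

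Between the naive pools, 0 members were past 2-fold in either direction, where 1.13% of all genes were higher and 1.04% lower in KO. The members' median was log2 -0.15, beside 0.02 for all genes. Between the DSS pools, 2 members (Sfrp1 and Sfrp4) were past 2-fold higher in KO, where 5.06% of all genes were, and 1 (Wnt8b) was lower, where 2.20% of all genes were. Here the members' median was log2 0.20, beside -0.09 for all genes. At a 1.5-fold threshold, 6 members were higher in KO DSS than in WT DSS (Rspo1, Rspo3, Sfrp1, Sfrp4, Sfrp5 and Wnt10a), where 10.4% of all genes were, and 1 was lower (Wnt8b), where 5.64% were. At that threshold 1 member, Sfrp4, was lower in KO naive, where 2.24% of all genes were, and 3 members (Dkk2, Rspo1 and Wnt4) were higher with DSS in WT, where 7.95% were. Lower with DSS at 1.5-fold were 5 members in WT (Fzd7, Fzd9, Rspo2, Wnt7b and Wnt8b), where 12.8% of all genes were, and 5 in KO (Fzd5 in place of Rspo2), where 15.6% were. Higher with DSS in KO were 11 members, the 8 past 2-fold with Sfrp2, Wnt4 and Wnt6, where 10.0% of all genes were.

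The KO response minus the WT response to DSS, on the log2 scale, was above 0 for 19 of the 28 members above background in every pool. For 5 of them (17.9%) it was at least 1: Rspo3 at 1.33, Sfrp1 at 2.20, Sfrp2 at 1.11, Sfrp4 at 2.25 and Sfrp5 at 1.28. Of all 19322 genes above background in every pool, 7614 were above 0 and 687 (3.56%) at least 1. For 0 members it was -1 or less. The median was 0.28 for the members and -0.10 for all genes. With 1 array a group, the difference of the responses has no test.

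**Figure D4:**
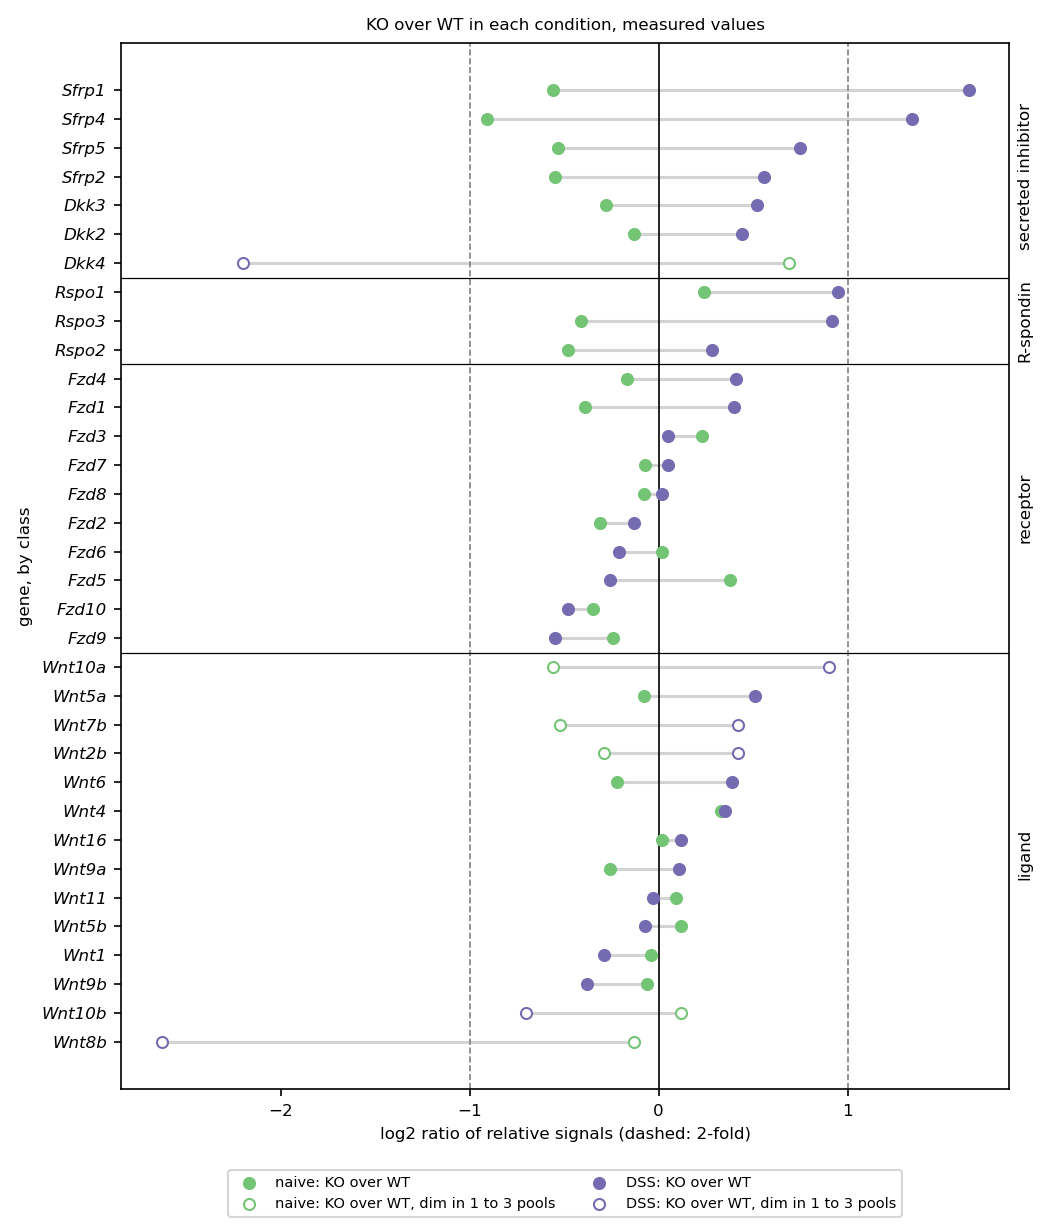
Log2 ratio of relative signals, KO over WT, for each measured member by class, in the naive and in the DSS condition. Open points were not well above background in at least 1 pool. All 6 inhibitors measured in every pool lie left of 0 in the naive condition and right of 0 under DSS.

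The mean DSS effect over both genotypes was fitted with limma in a model without interaction, which leaves 1 residual degree of freedom. In that fit the difference between the responses of the genotypes is taken as the error. Its p-values therefore do not measure the spread between mice or between pools of a group. After Benjamini-Hochberg adjustment over 22162 genes the fit called 0 members, where 0.00% of all genes were called. Rspo1 was higher with DSS by log2 1.69 (SE 0.25, limma adjusted p = 0.205) and Fzd9 lower (log2 -1.39, SE 0.18, limma adjusted p = 0.205). Before adjustment, 7 of 34 members (20.6%) were past the 0.05 threshold in limma, where 18.3% of all genes were: Dkk2, Fzd7, Fzd9, Rspo1, Wnt4, Wnt7b and Wnt8b. With genes above background on all 4 arrays alone, limma called Rspo1 and Fzd9 (adjusted p = 0.0178 each), where 6.58% of all genes were called. With a trended, robust prior it called Rspo1 (adjusted p = 0.00846) and Fzd9 (adjusted p = 0.00944), where 7.27% were. For the mean genotype effect limma called 0 members and 0.00% of all genes, and 0 members were past 0.05 before adjustment, where 3.89% of all genes were. With the trended, robust prior it called 0 members and 0.0316% of all genes.

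Other genes of the pathway were described from 4 lists. Of 15 cell-surface and secretion genes, all measured, 0 were past 2-fold higher with DSS and 1 was lower in WT, where 5.13% of all genes were, and 3 in KO, where 5.00% were. Lgr5, an R-spondin receptor of crypt stem cells, had 0.524, 0.477, 0.194 and 0.160 in WT naive, KO naive, WT DSS and KO DSS, lower in both DSS pools. Rnf43 and Znrf3 were 1.78-fold and 1.94-fold lower with DSS in WT and 2.37-fold and 2.09-fold lower in KO. The co-receptor Lrp6 was 1.60-fold and 1.82-fold lower.

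Of 13 measured Wnt target genes, 0 were past 2-fold higher with DSS, where 3.44% of all genes were in WT and 5.67% in KO. Past 2-fold lower were 2 in WT, where 5.13% of all genes were, and 3 in KO, where 5.00% were. In each genotype 6 of the 13 were above 0, where 10727 (WT) and 8461 (KO) of all 22162 genes were. Axin2, a negative feedback regulator induced by beta-catenin, had 0.292, 0.283, 0.145 and 0.120, 2.02-fold lower with DSS for WT and 2.35-fold for KO. Ascl2, a transcription factor of crypt stem cells, was 3.25-fold and 3.46-fold lower. Sox9 was lower by 1.68-fold (WT) and 2.29-fold (KO), and Tnfrsf19 1.49-fold and 1.65-fold. The median of this list was log2 -0.17 in WT and -0.09 in KO, beside -0.02 and -0.13 for all genes.

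Of 7 measured further extracellular inhibitors, 1 was past 2-fold higher in WT and 3 in KO, and 0 were past 2-fold lower in either. Of all genes 3.44% were higher and 5.13% lower in WT, and 5.67% higher and 5.00% lower in KO. Igfbp4 had 0.204, 0.173, 0.489 and 1.37, so that the DSS pool was 2.39-fold above the naive one for WT and 7.91-fold for KO. Sostdc1 was 1.40-fold and 2.57-fold higher, and Wif1 1.63-fold and 1.69-fold. Apcdd1, dim in both naive pools, stood at least 1.83-fold (WT) and at least 3.57-fold (KO) higher with DSS. The genes of the list went both ways: 3 of the 7 had a DSS ratio below 0 for WT and 2 for KO. Of all 22162 genes, 11435 and 13701 did. The median log2 ratio of the list was 0.48 in WT and 0.84 in KO, beside -0.02 and -0.13 for all genes. Shisa2 had log2 -0.39 (WT) and -0.89 (KO), Notum -0.49 and -0.59, and Frzb -0.05 and 0.84. Of 17 intracellular components, 0 were past 2-fold higher, and 0 in WT and 1 in KO were past 2-fold lower. The latter was the transcription factor Tcf7l2, lower by 1.54-fold (WT) and 3.05-fold (KO).

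Markers of other cell types differed between the same pools. The summed relative signal of 11 fibroblast markers was 87.5 (WT naive), 70.4 (KO naive), 92.3 (WT DSS) and 157 (KO DSS). From lowest to highest this order is KO naive, WT naive, WT DSS and KO DSS. Among the R-spondins and inhibitors above background in every pool, Rspo3, Sfrp1, Sfrp4 and Dkk2 ran in this order. Rspo1, Rspo2, Sfrp2, Sfrp5 and Dkk3 did not. Past 2-fold higher with DSS were 6 of the 11 fibroblast markers in KO, where 5.67% of all genes were, and 0 in WT, where 3.44% were. Gli1 was 2.43-fold lower with DSS in WT and 2.32-fold in KO, and Foxl1 1.49-fold and 1.42-fold lower. The fibroblast list's median log2 ratio, DSS over naive, was -0.02 in WT and 1.03 in KO, beside -0.02 and -0.13 for all genes. The endothelium list's median was -0.24 in WT and 0.95 in KO (7 genes), and the leukocyte list's 0.32 and 1.29 (9 genes). Of the 12 colon epithelium markers, 11 had lower signals in KO DSS than in KO naive, and 11 lower than in WT DSS. Of all 22162 genes, 13701 and 13507 did. Past 2-fold lower with DSS in KO were 2 of the 12, Slc26a3 (4.04-fold) and Aqp8 (2.67-fold), where 5.00% of all genes were. The median over the list was log2 0.16 with DSS in WT and -0.40 in KO, where the range was -2.01 to 0.13. The part of these markers in the Sfrp, R-spondin, Lgr5 and Axin2 values was not tested, and in whole tissue more cells of a type and more RNA per cell cannot be told apart.

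Of 5 mesothelium markers, 5 were past 2-fold higher with DSS in WT, where 3.44% of all genes were, and 3 in KO, where 5.67% were. Their summed signal was 0.287, 0.423, 1.17 and 1.32 in WT naive, KO naive, WT DSS and KO DSS. Between the DSS pools 2 of the 5 were higher in KO and 3 lower, with a median of log2 -0.02, where Rspo1 was 1.93-fold higher. Of 9 smooth muscle markers, 1 was past 2-fold lower with DSS in WT and 4 in KO, with sums of 328, 320.0, 307 and 188. Of 5 measured skeletal muscle markers, 2 were past 2-fold lower in WT and 4 in KO. Of all genes 5.13% were past 2-fold lower in WT and 5.00% in KO. The part of these in the Rspo1 and Fzd9 values was not tested.

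**Figure D5:**
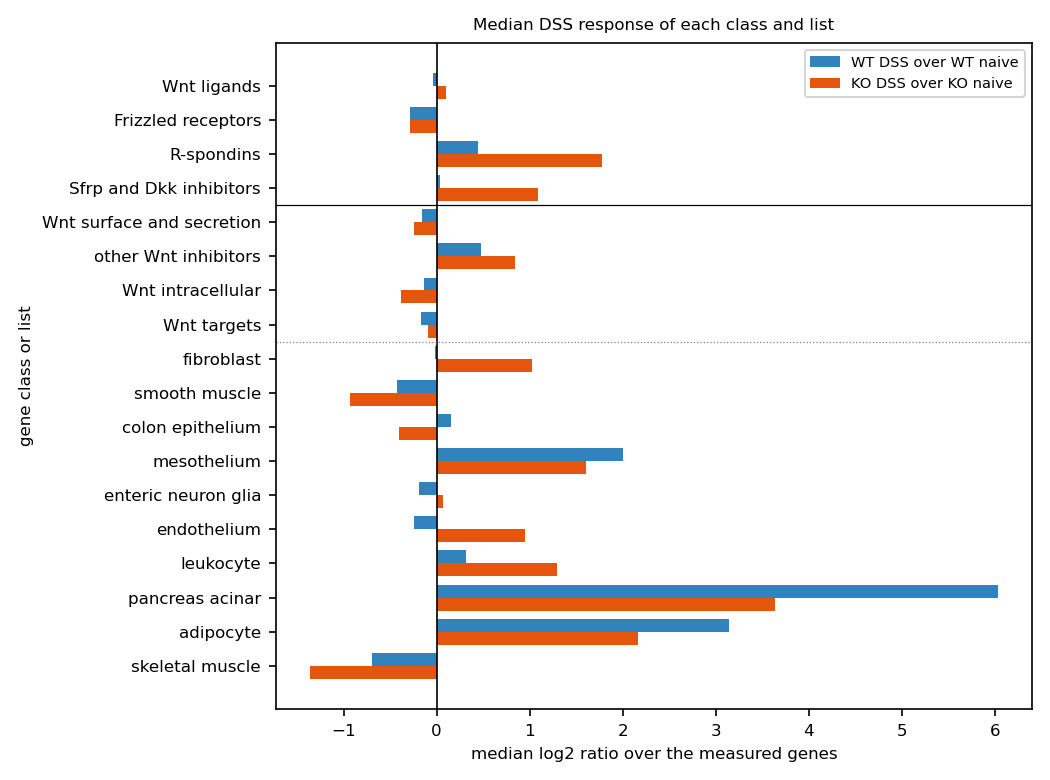
Median log2 ratio, DSS over naive, of each member class, pathway list and cell type marker list, in WT and in KO. R-spondins (0.44 in WT, 1.78 in KO) and secreted inhibitors (0.04 and 1.09) have higher medians in KO, as do the fibroblast markers (-0.02 and 1.03). Genes dim in some pools, such as Dkk4, enter at their measured values. Over the 6 inhibitors above background in every pool the medians were -0.08 in WT and 1.13 in KO.

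The sequences before the gene starts were read for Rspo1, Fzd9 and the other members. Rspo1 and Fzd9 were above background in every pool and differed by more than 2-fold between the DSS and naive pools in both genotypes. Wnt7b and Wnt8b also differed by more than 2-fold in both but were not above background in every pool. The set of promoter sequences at hand (GRCm38.p6) held 27 of the 41 genes, 30 promoters in all. The 250 bases before the start of Rspo1 and Fzd9 are shown, 5′ to 3′ on the strand of the gene, at chr4:124986180-124986429 on the plus strand and chr5:135251048-135251297 on the minus strand. Capitals mark the single match to a relaxed NF-kB pattern (GGGA, any 4 bases, then CC), which lies on the opposite strand in Rspo1.

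Rspo1: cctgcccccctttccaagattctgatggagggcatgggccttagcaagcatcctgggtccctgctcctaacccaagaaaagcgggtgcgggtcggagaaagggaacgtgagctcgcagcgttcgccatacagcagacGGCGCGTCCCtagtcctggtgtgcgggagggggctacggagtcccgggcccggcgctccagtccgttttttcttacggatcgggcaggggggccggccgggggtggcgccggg
Fzd9: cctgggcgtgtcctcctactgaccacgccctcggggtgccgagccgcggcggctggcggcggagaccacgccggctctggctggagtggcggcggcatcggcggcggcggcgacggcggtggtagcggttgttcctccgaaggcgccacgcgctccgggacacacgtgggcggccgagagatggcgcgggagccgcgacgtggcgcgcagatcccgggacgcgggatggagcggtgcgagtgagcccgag

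On either strand, the pattern was in 13 of the 30 member promoters (43.3%) and in 17.6% of all 32851 promoters of this length. The 30 include no promoter of Rspo3, Sfrp1, Sfrp4, Wnt7b or Wnt10a, so the share is not one for the members past 2-fold. Among the 13 are promoters of Wnt3 and Wnt3a, which were not well above background in any pool. The member promoters had a median GC content of 68.8%, against 52.4% for all, and the part of GC content in the count was not tested. The TCF/LEF letters CTTTGAA or CTTTGAT were in 3 of 30 and in 7.48% of all, and the AP-1 letters TGANTCA in 1 of 30 (3.33%) and in 6.75% of all. A match is a description of the letters and says nothing of binding.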

How the data were processed

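Each array's deposited scanner file gives per spot an intensity (the processed signal, after background subtraction and detrending) with quality flags. Per the submitters' processing notes the software was Agilent Feature Extraction 11.5.1.1. The signal in the deposited series table is the processed signal divided by 1 constant per array, as tested on the values. Probe coordinates are mm9, per the file headers.

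Control spots and outlier spots (129 to 136 an array) were left out, spots of a probe were averaged, and log2 signals were set relative to each array's 75th percentile. A probe entered (28720 did) where any array had it well above background, and the brightest such probe stood for a gene. Symbols came from the probes' accessions and older symbols in RefSeq (GRCm38.p6), and all 41 member symbols matched. Pairs of pools were described by a 2-fold threshold without a test. Mean effects were fitted with limma 3.58.1 in R 4.3.3, using all 4 arrays and 1 residual degree of freedom. In data simulated on 22162 genes that fit recovered 0% of DSS changes of log2 1 or 2, 70% at log2 4 and 96% at log2 6. The arrays share a slide and a scan date, so no batch was fitted. The number of arrays limits the precision. Values in all 4 pools are given for those past 2-fold in a comparison and for 8 well-known colon members. Sfrp2, Rspo2, Wnt4, Apcdd1, Notum and Frzb and the single marker genes (Gli1, Foxl1, Slc26a3, Aqp8) were chosen after their values were seen. From a pathway list up to 4 genes were named, among those with the largest mean absolute DSS ratio of genes above background on all 4 arrays. Alternatives covered scaling, background correction, filter, probe choice, bounds, threshold and limma's prior. The members and lists were chosen with earlier results of these data known.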

Additional observations from a re-analysis of the deposited data

Results flagged for a closer look

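For 2 secreted inhibitors the DSS response had opposite signs in the genotypes, and the KO response exceeded the WT response by at least 1 on the log2 scale. Sfrp2 had log2 -0.32 in WT and 0.79 in KO, a difference of 1.11. Sfrp5 had log2 -0.19 in WT and 1.09 in KO, a difference of 1.28. With 1 array a group the difference was not tested. The spot SE of each of the 4 ratios was 0.21, larger than the Sfrp5 ratio in WT, so the sign of that ratio is uncertain. Under median scaling, quantile normalization, and normexp with quantile normalization it was log2 -0.05, -0.09 and -0.06. For Sfrp2 in WT these values were -0.18, -0.23 and -0.20.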

How the results depend on the processing

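Of 18 member comparisons past 2-fold, 120 values were computed under the alternatives and 0 changed sign. Counts of members past 2-fold moved as follows. Lower with DSS in WT (3 members), it was 1 with normexp and quantile normalization (Wnt8b), 1 among genes above background on all 4 arrays (Fzd9), and 5 both without bounds and at 1.5-fold. Lower with DSS in KO (3 members), it was 1 on all 4 arrays, 2 with quantile normalization and with normexp (Wnt7b lost), and 5 without bounds and at 1.5-fold. Higher with DSS in KO (8 members), it was 6 with normexp (Dkk2 and Wnt10a lost), 7 on all 4 arrays (Wnt10a lost) and 11 at 1.5-fold. Higher with DSS in WT (1 member), it was 2 without bounds and 3 at 1.5-fold. Lower in KO DSS than WT DSS (1 member), it was 0 with normexp, 0 on all 4 arrays and 2 without bounds. Higher in KO DSS (2 members), it was 6 at 1.5-fold. Lower in KO naive (0 members), it was 1 without bounds (Wnt3a) and 1 at 1.5-fold (Sfrp4). The shares of all genes at 1.5-fold are given above. Those under the other settings are not set beside these counts, so the counts do not show whether members moved more than all genes. The all-4 filter leaves fewer genes to count. The cause of the other moves was not tested.

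The limma DSS fit called 0 genes, but 1272 with the all-4 filter and 1611 with a trended, robust prior. The genotype fit called 0 and, with that prior, 7. Median scaling moved the all-gene median in WT from log2 -0.02 to 0.12, and the members' median there from -0.08 to 0.06, which turned its sign, as quantile normalization did (0.04). No paired analysis was possible because each group has 1 array and no replicate numbers. For the same reason no replicate could be left out. Low signals near background limit Wnt7b, Wnt10a, Wnt2b and Rspo2.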
